A study of Homo sapiens
Mus musculus with 6 samples.

Results

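Outside the usual Notch target genes, 10 mouse genes were followed here because their reads were high in C2C12 myoblasts placed beside HEK cells carrying wild-type Jag1. They were 8430408G22Rik, Dio2, Gpr133, Cbfa2t3, Sec14l2, Glis3, F2rl1, Pde1b, Egfr and Rassf4. All 10 were found in the mouse table of 23433 genes, and all 10 passed the filter on low counts that left 11365 genes to test. The genes were chosen by their read counts beside HEK-Jag1WT against HEK-control, so that rise is given below as a description with no test. What the choice did not use directly was the response to HEK-Jag1Ndr, the difference between the C2C12 lines, and the same genes in the HEK cells.

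The data are RNA sequencing of 6 co-culture wells, 1 well for each pairing of a mouse with a human cell line. C2C12 is a mouse skeletal myoblast line, used here as C2C12-Notch1, the line labelled FLNotch1 and grown under puromycin, and as C2C12-control. HEK293-Flp-In is a human embryonic kidney line, used as HEK-Jag1WT with the wild-type ligand, as HEK-Jag1Ndr with Jag1 as encoded by the Nodder allele, which changes a single amino acid, and as HEK-control; both Jag1 lines were grown under hygromycin. Every well of C2C12 cells was transfected with 1.6 ug of the pcDNA5 plasmid, received HEK cells 18 h later and was lysed after 6 h together. All 6 wells stood on 1 plate. The labels name no repeat cultures of a pairing, so the p-values below rest on how far these 6 wells depart from the fitted model. That spread may be technical. Where C2C12 line and HEK line are separate terms, it also holds any difference between the C2C12 lines in their response to a HEK line.

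Notch is a receptor that is pulled and cut when it binds a ligand such as Jag1 on a neighbouring cell. Its freed intracellular part then enters the nucleus and joins the DNA-binding protein RBPJ to switch genes on. In muscle precursors this signal is known for holding cells back from differentiation, and its best known targets are the Hes and Hey repressor genes. With 8430408G22Rik left aside, the chosen genes encode other kinds of protein: cell surface receptors, enzymes, a lipid carrier, a Ras-binding adaptor and transcriptional regulators. No role is given here for 8430408G22Rik.

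Mouse reads numbered from 2263529 to 7965231 per well, lowest in the C2C12-Notch1/HEK-Jag1WT well. They made up 29.6 to 36.5% of all gene reads in C2C12-Notch1 wells and 47.2 to 52.7% in C2C12-control wells. Fewer mouse cells and less mouse RNA per cell cannot be told apart in such bulk samples. Levels of mouse genes below are per mouse read and those of human genes per human read. Of 10 myoblast markers, 10 averaged at least 1 RPKM in the mouse table, against 5 in the human table; of 10 HEK markers, 4 did so in the mouse table and 7 in the human table. Notch1 stood at 158 to 179 RPKM in C2C12-Notch1 wells and 9.06 to 20.4 RPKM in C2C12-control wells. Reads on Jag1 in the mouse table numbered 42347 to 63416 beside either Jag1 line and 110 and 280 beside HEK-control. This separates the wells of the Jag1 lines from the HEK-control wells as labelled, but does not tell HEK-Jag1WT from HEK-Jag1Ndr.

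The receptors came first. Gpr133, an adhesion G protein-coupled receptor, was expressed at low levels. RPKM, reads per kilobase of gene and per 1000000 reads of the gene's own species, is the scale of all levels given. In C2C12-Notch1 cells Gpr133 stood at 2.31 RPKM beside HEK-Jag1WT, 0.857 RPKM beside HEK-Jag1Ndr and 0.372 RPKM beside HEK-control. C2C12-control cells held 3.31 RPKM beside HEK-Jag1WT, 1.18 RPKM beside HEK-Jag1Ndr and 0.558 RPKM beside HEK-control. The order was the same in both lines, and neither the HEK-Jag1WT nor the HEK-Jag1Ndr wells overlapped the HEK-control wells. The reads behind these values numbered 10 to 79 per well.

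F2rl1 encodes a protease-activated receptor, which is switched on when a serine protease cuts its outer end. In C2C12-Notch1 cells it stood at 1.94 RPKM beside HEK-Jag1WT, 1.14 RPKM beside HEK-Jag1Ndr and 1.16 RPKM beside HEK-control. Its levels in C2C12-control cells were 13.2 RPKM beside HEK-Jag1WT, 6.22 RPKM beside HEK-Jag1Ndr and 4.34 RPKM beside HEK-control. All 3 C2C12-Notch1 wells lay below all 3 C2C12-control wells, and the Notch1 wells held only 12 to 17 reads each. The level beside HEK-Jag1WT was 1.68-fold that beside HEK-control in C2C12-Notch1 cells, with a 95% counting interval of the log2 ratio of -0.45 to 1.90 that included 0. In C2C12-control cells it was 3.07-fold, with an interval of 1.15 to 2.11.

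Egfr, the receptor for epidermal growth factor, was expressed at several RPKM in every well. C2C12-Notch1 cells had 17.5 RPKM beside HEK-Jag1WT, 7.97 RPKM beside HEK-Jag1Ndr and 7.34 RPKM beside HEK-control. C2C12-control cells had 12.0 RPKM beside HEK-Jag1WT, 11.1 RPKM beside HEK-Jag1Ndr and 6.89 RPKM beside HEK-control. In both lines the level beside HEK-Jag1Ndr lay between the other levels. The RPKM of Egfr did not follow its reads at a fixed length: reads and RPKM together gave 4.98 to 6.01 kb across the wells, a ratio of 1.21, against at most 1.06 for each of the other 9 genes. Ratios from scaled counts, given further on, therefore differ from ratios of these RPKM values.

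Among the enzymes, Dio2 converts the thyroid hormone thyroxine into its active form. It stood in C2C12-Notch1 cells at 30.0 RPKM beside HEK-Jag1WT, 13.7 RPKM beside HEK-Jag1Ndr and 6.98 RPKM beside HEK-control. In C2C12-control cells the values were 19.3 RPKM beside HEK-Jag1WT, 7.57 RPKM beside HEK-Jag1Ndr and 4.63 RPKM beside HEK-control. Both lines kept the order HEK-Jag1WT, HEK-Jag1Ndr, HEK-control, with the Notch1 line higher beside each partner.

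Pde1b encodes a calmodulin-dependent phosphodiesterase, which breaks down cyclic nucleotides when calcium is high. Its levels in C2C12-Notch1 cells were 5.09 RPKM beside HEK-Jag1WT, 2.47 RPKM beside HEK-Jag1Ndr and 1.33 RPKM beside HEK-control. They were 11.9 RPKM beside HEK-Jag1WT, 5.65 RPKM beside HEK-Jag1Ndr and 4.11 RPKM beside HEK-control in C2C12-control cells. Again the order of partners was the same, with the Notch1 line lower beside each.

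Sec14l2, a SEC14-like carrier of lipids such as tocopherol, had the highest level of the 10 genes in every well. C2C12-Notch1 cells held 83.8 RPKM beside HEK-Jag1WT, 31.5 RPKM beside HEK-Jag1Ndr and 21.4 RPKM beside HEK-control. C2C12-control cells held 68.7 RPKM beside HEK-Jag1WT, 28.8 RPKM beside HEK-Jag1Ndr and 17.1 RPKM beside HEK-control. With 173 to 803 reads per well it was also the most precisely counted, and the wells of the 3 HEK lines did not overlap.

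Rassf4, a member of the Ras association domain family of adaptors, was low throughout. In C2C12-Notch1 cells it stood at 2.09 RPKM beside HEK-Jag1WT, 0.287 RPKM beside HEK-Jag1Ndr and 0.849 RPKM beside HEK-control. C2C12-control cells had 2.15 RPKM beside HEK-Jag1WT, 0.998 RPKM beside HEK-Jag1Ndr and 0.731 RPKM beside HEK-control. The lines matched beside HEK-Jag1WT, and the lowest value, from 7 reads, was that of the C2C12-Notch1/HEK-Jag1Ndr well.

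Of the transcriptional regulators, Cbfa2t3 encodes a corepressor of the ETO family. It had 1.65 RPKM beside HEK-Jag1WT, 0.514 RPKM beside HEK-Jag1Ndr and 0.475 RPKM beside HEK-control in C2C12-Notch1 cells. In C2C12-control cells it had 2.41 RPKM beside HEK-Jag1WT, 1.43 RPKM beside HEK-Jag1Ndr and 0.722 RPKM beside HEK-control. The zinc finger factor gene Glis3 stood at 12.4 RPKM beside HEK-Jag1WT, 6.64 RPKM beside HEK-Jag1Ndr and 5.94 RPKM beside HEK-control in C2C12-Notch1 cells. Its C2C12-control values were 10.3 RPKM beside HEK-Jag1WT, 5.92 RPKM beside HEK-Jag1Ndr and 3.33 RPKM beside HEK-control. For both genes the HEK-Jag1WT wells lay above the others, and the HEK-Jag1Ndr and HEK-control wells overlapped across the lines.

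The gene listed as 8430408G22Rik is given no other name in the files. It showed the widest range of the 10. In C2C12-Notch1 cells it stood at 41.8 RPKM beside HEK-Jag1WT, 4.75 RPKM beside HEK-Jag1Ndr and 4.39 RPKM beside HEK-control. C2C12-control cells had 60.5 RPKM beside HEK-Jag1WT, 7.33 RPKM beside HEK-Jag1Ndr and 2.48 RPKM beside HEK-control. Its level beside HEK-Jag1WT was 9.84-fold that beside HEK-control in C2C12-Notch1 cells (30 reads beside HEK-control) and 24.9-fold in C2C12-control cells (13 reads beside HEK-control).

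**Figure D1:**
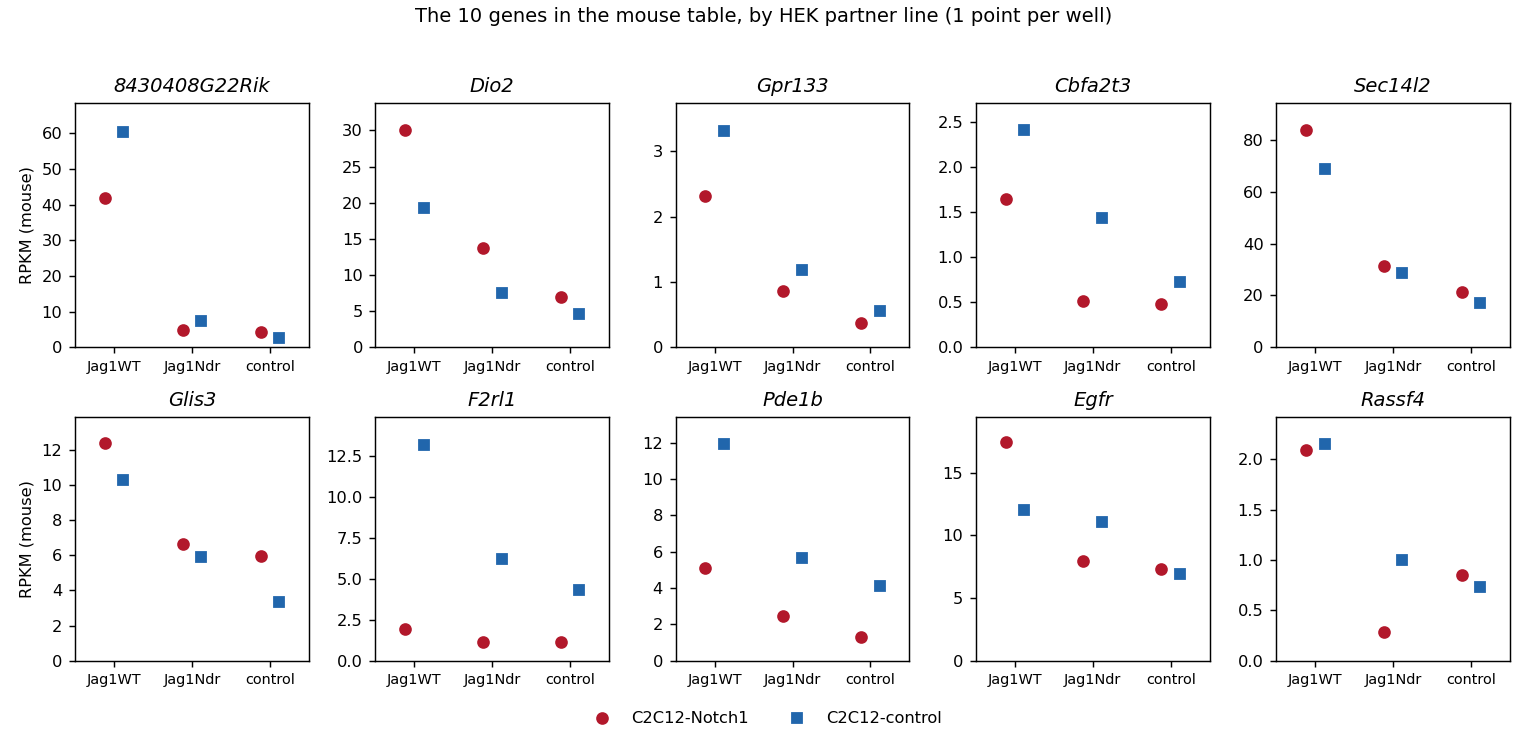
Level of each of the 10 genes in RPKM (vertical axis, linear from 0) beside HEK-Jag1WT, HEK-Jag1Ndr and HEK-control cells (horizontal axis), with 1 point per well, circles for C2C12-Notch1 and squares for C2C12-control. The HEK-Jag1WT points are the highest of each line in all 10 panels, and F2rl1 is set apart by C2C12-Notch1 values of 1.14 to 1.94 RPKM, all below those of C2C12-control.

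Because HEK-Jag1WT wells chose the genes, their size of change beside that line only describes the choice. Fitted over all 6 wells, the log2 difference of HEK-Jag1WT minus HEK-control ran from 1.22 (Egfr) to 3.86 (8430408G22Rik), with a median of 1.73, beside a median of 0.00 over all 11365 genes. By size, 8430408G22Rik ranked 6, Gpr133 9, Dio2 15 and Sec14l2 16 among all genes tested, and Egfr ranked 58. In all, 2.7% of the genes tested were called higher and 1.76% lower in that comparison, from which nothing is read. The level was above HEK-control for 10 of 10 genes within each C2C12 line, with the counting interval above 0 for 9 in C2C12-Notch1 cells and 10 in C2C12-control cells. Over all genes tested, 49.9% stood above HEK-control and 7.88% had such an interval in C2C12-Notch1 cells, and 49.8% and 6.92% in C2C12-control cells.

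The HEK-Jag1Ndr partner was then set against HEK-control. Dio2, Sec14l2 and Egfr rose beside HEK-Jag1Ndr, 3 of the 10 genes, and 0 fell. Over all genes tested, 0.431% were called higher and 0.0968% lower in that comparison. Dio2 rose by log2 0.88 (SE 0.109, edgeR quasi-likelihood adjusted p 2.4e-07) and Sec14l2 by 0.685 (SE 0.0953, adjusted p 4.17e-06). They ranked 3 and 5 by p among all 11365 genes. Egfr rose by 0.59 (SE 0.136, adjusted p 0.0492). Human EGFR and SEC14L2 were also higher in these HEK-Jag1Ndr wells, and the few human DIO2 reads were most there, as given further on. The HEK-control wells are shared with the comparison that chose the genes, so a low value there raises both, and the count is not independent of the choice.

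The call of Egfr depended on single wells and on the scaling. Its adjusted p was 0.842, with a log2 difference of 0.23, without the C2C12-control/HEK-Jag1Ndr well, and 0.521 without the C2C12-control/HEK-control well. With library size scaling only it was 0.0706. Over all alternatives it ranged from 2.82e-07 to 1. The calls of Dio2 and Sec14l2 held without any 1 well but not under limma on log2 RPKM (adjusted p 0.179 to 0.246).

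The other 7 genes did not pass. Gpr133 stood at 1.12 (SE 0.347, adjusted p 0.171), Cbfa2t3 at 0.84 (0.248), 8430408G22Rik at 0.79 (0.289), Pde1b at 0.58 (0.367), Glis3 at 0.475 (0.186), F2rl1 at 0.39 (0.767) and Rassf4 at -0.14 (0.978), with edgeR adjusted p values in brackets. The sign turned with single wells for F2rl1, at -0.19 without the C2C12-control/HEK-control well, and for Rassf4, at 0.37 without the C2C12-Notch1/HEK-Jag1Ndr well and 0.22 without the C2C12-Notch1/HEK-control well. Without the C2C12-Notch1/HEK-control well, 8430408G22Rik reached log2 1.56 (edgeR adjusted p 0.00741) and Glis3 0.83 (0.0193), so that 5 genes passed. The median over the 10 genes was 0.64, beside 0.00 over all genes tested. The levels of 8430408G22Rik, Dio2, Gpr133, Sec14l2 and Egfr beside HEK-Jag1Ndr did not overlap those beside HEK-control, 5 of 10 genes and all 5 higher, beside 5.08% of all genes higher without overlap and 9.13% lower. The median and this count also rest on the HEK-control wells that helped to choose the genes, so neither is independent of the choice.

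Within single lines the picture differed in detail. In C2C12-Notch1 cells 8 of 10 genes stood higher beside HEK-Jag1Ndr than beside HEK-control and 2 lower. The counting interval was above 0 for 5 and below 0 for 1, and over all genes 50.9% stood higher and 6.97% had an interval above 0. In C2C12-control cells 10 of 10 stood higher, with the interval above 0 for 8, beside 49.6% and 5.45% of all genes. In both lines a low value in the HEK-control well, which helped to choose the genes, raises these ratios. The median log2 ratio was 0.26 in C2C12-Notch1 cells and 0.75 in C2C12-control cells. Whether the HEK-Jag1Ndr response differs between the lines was not tested.

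**Figure D2:**
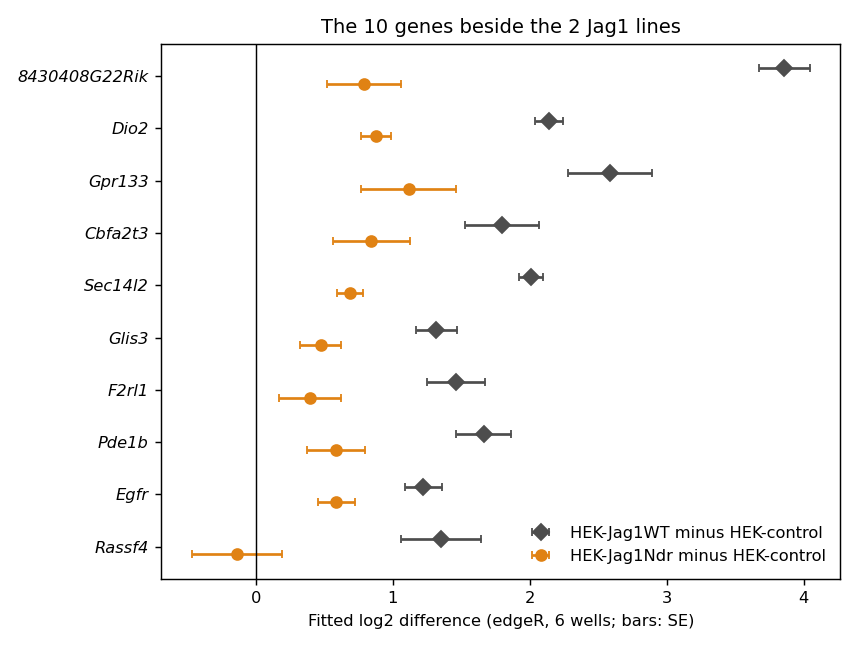
Fitted log2 difference from HEK-control (horizontal axis) for each of the 10 genes (rows), with diamonds for HEK-Jag1WT and circles for HEK-Jag1Ndr; bars are 1 SE from the edgeR fit over 6 wells. The HEK-Jag1WT values chose the genes and run from 1.22 to 3.86, and the HEK-Jag1Ndr values run from -0.14 (Rassf4) to 1.12 (Gpr133).

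Set directly beside each other, the HEK-Jag1WT and HEK-Jag1Ndr partners gave levels that varied from gene to gene. These levels rest on the HEK-Jag1WT wells that chose the genes and are not tested. Against HEK-control, 54.3% of human genes were called in HEK-Jag1WT cells and 46.1% in HEK-Jag1Ndr cells. The Jag1 allele and other differences between the HEK lines therefore cannot be told apart. As a share of the level beside HEK-Jag1WT, the level beside HEK-Jag1Ndr ran from 11.3 to 58.4% in C2C12-Notch1 cells (median 41.3%) and from 12.1 to 78.6% in C2C12-control cells (median 46.6%). For 8430408G22Rik it was 11.3% in C2C12-Notch1 cells (95% counting interval 6.97 to 17.6%) and 12.1% in C2C12-control cells (9.3 to 15.4%). It was also alike in the lines for Sec14l2, at 37.4% in C2C12-Notch1 and 41.7% in C2C12-control cells, and for Gpr133, at 36.7% in C2C12-Notch1 and 35.7% in C2C12-control cells. For Egfr the counting intervals of the lines did not overlap, at 45.9% (37.3 to 56.4%) in C2C12-Notch1 cells and 78.6% (68.1 to 90.8%) in C2C12-control cells. Rassf4 stood at 13.6% (5.05 to 31.6%) in C2C12-Notch1 cells and 46.6% (31.6 to 68.6%) in C2C12-control cells. Only counting error is covered by these intervals.

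**Figure D3:**
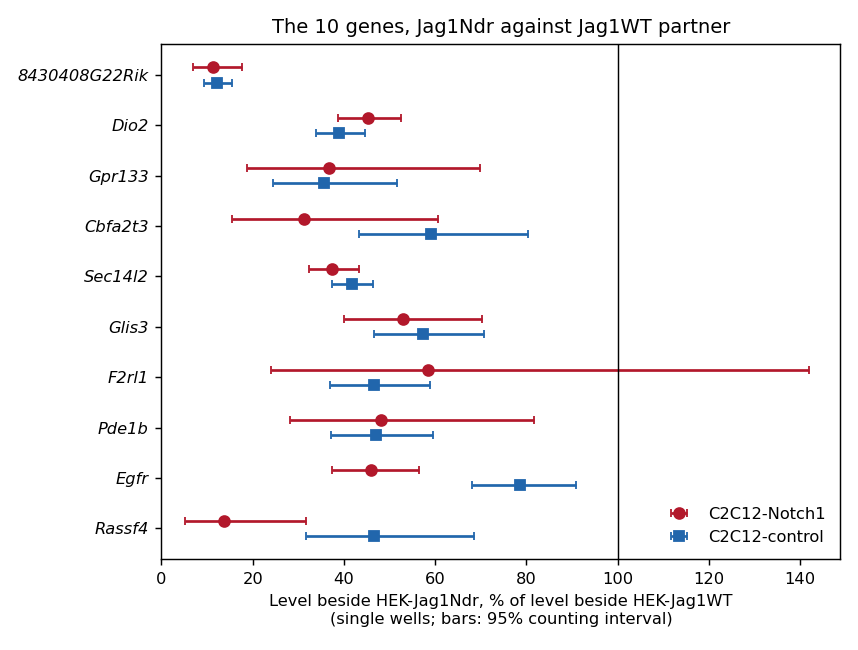
Level beside HEK-Jag1Ndr as a percentage of the level beside HEK-Jag1WT (horizontal axis, from 0) for each of the 10 genes (rows), with circles for C2C12-Notch1 and squares for C2C12-control; each point compares single wells and bars are 95% counting intervals. 8430408G22Rik lies lowest in both lines, at 11.3% and 12.1%, and Egfr in C2C12-control cells lies highest, at 78.6%.

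The levels of these genes were next compared between the C2C12 lines. Each C2C12 line met the same 3 HEK lines, so the choice of the genes does not set the direction of this comparison. Of the 10 genes, 3 were higher and 4 lower in C2C12-Notch1 than in C2C12-control cells; over all genes tested, 28.4% were called higher and 29.4% lower, 57.8% together. Their share was thus near that of all genes. Notch1 and other differences between the C2C12 lines, such as the puromycin of C2C12-Notch1, cannot be told apart. Without overlap between the lines in RPKM, 1 of the 10, F2rl1, was lower and 0 were higher, beside 28.6% and 29.7% of all genes. In C2C12-Notch1 cells F2rl1 was lower by 2.38 on the log2 scale (SE 0.207, edgeR adjusted p 4.9e-15) and Pde1b by 1.31 (SE 0.172, adjusted p 2.61e-09). Cbfa2t3 was lower by 0.90 (SE 0.219, adjusted p 0.00039) and 8430408G22Rik by 0.43 (adjusted p 0.00894). Dio2 was higher by 0.70 (SE 0.0798, adjusted p 5.23e-11), Glis3 by 0.35 (adjusted p 0.00823) and Sec14l2 by 0.23 (adjusted p 0.0044). Gpr133 stood at -0.53 (adjusted p 0.0531), Rassf4 at -0.38 (0.193) and Egfr at 0.03 (0.826).

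The calls of F2rl1, Pde1b and Dio2 held under every alternative tried. When a well is left out, the remaining well of its HEK line is fitted by the HEK term alone. Leaving out either well of a HEK line therefore removes the same information on the C2C12 lines, and such paired omissions are not separate checks. For 8430408G22Rik the call was lost without the C2C12-Notch1/HEK-Jag1WT well (edgeR adjusted p 0.695) or the C2C12-control/HEK-Jag1WT well (0.687), and for Sec14l2 without the same wells (0.0898 and 0.102). That of Cbfa2t3 was lost without either HEK-Jag1Ndr well (0.0664 for C2C12-Notch1, 0.0645 for C2C12-control). Glis3 was no longer called without either HEK-control well (0.142 for C2C12-Notch1, 0.144 for C2C12-control). Egfr, not called over all wells, passed without either well with HEK-Jag1Ndr, at log2 0.27 (0.037 without the C2C12-Notch1 well and 0.0415 without the C2C12-control well), and stood at -0.19 without either well with HEK-Jag1WT. Over all alternatives the adjusted p ranged from 0.000145 to 0.758 for 8430408G22Rik, 0.00391 to 0.128 for Sec14l2, 0.000131 to 0.0669 for Cbfa2t3, 0.00418 to 0.173 for Glis3 and 0.037 to 0.943 for Egfr.

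Partner by partner, F2rl1 in C2C12-Notch1 cells was at 14.6% of its C2C12-control level beside HEK-Jag1WT, 18.2% beside HEK-Jag1Ndr and 26.7% beside HEK-control. Pde1b was at 42.6% beside HEK-Jag1WT, 43.5% beside HEK-Jag1Ndr and 32.3% beside HEK-control. Dio2 was at 155% beside HEK-Jag1WT, 180% beside HEK-Jag1Ndr and 147% beside HEK-control. These 3 genes moved the same way beside every partner with intervals that excluded equality. Egfr was at 133% beside HEK-Jag1WT (95% counting interval 111 to 158%), 77.6% beside HEK-Jag1Ndr (64.7 to 92.8%) and 104% beside HEK-control (83.4 to 131%), so it lay on opposite sides of equality beside the Jag1 lines. For 8430408G22Rik it was 68.8% beside HEK-Jag1WT (55.7 to 84.5%), 64.4% beside HEK-Jag1Ndr (39.0 to 103%) and 174% beside HEK-control (88.0 to 363%), and the last 2 intervals included equality.

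**Figure D4:**
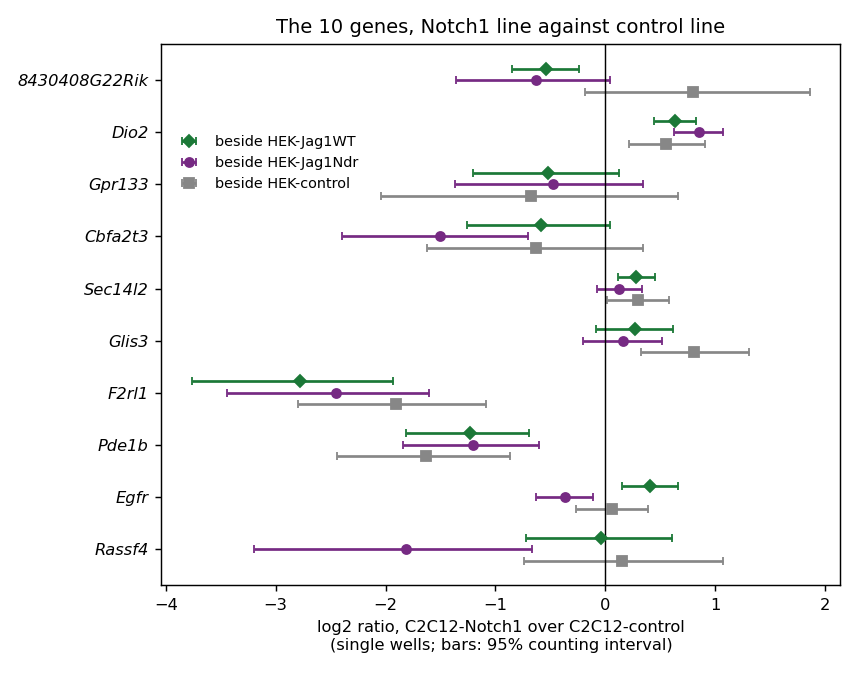
Log2 ratio of C2C12-Notch1 over C2C12-control (horizontal axis) for each of the 10 genes (rows), beside HEK-Jag1WT (diamonds), HEK-Jag1Ndr (circles) and HEK-control (squares); each point compares single wells and bars are 95% counting intervals. F2rl1 and Pde1b lie below 0 and Dio2 above 0 beside all 3 partners, and Egfr lies above 0 beside HEK-Jag1WT and below 0 beside HEK-Jag1Ndr with bars that exclude 0.

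The change beside HEK-Jag1WT was also set side by side in the lines. It rests on the wells that chose the genes, so the values of the 10 are given with no test. With HEK-control as the base in single wells, the log2 change in C2C12-Notch1 minus that in C2C12-control cells was closest to 0 for Sec14l2 (-0.01), Cbfa2t3 (0.04) and Dio2 (0.08). It was 0.35 for Egfr, which changed by 1.44 in C2C12-Notch1 and 1.09 in C2C12-control cells. The difference farthest from 0 was -1.34, for 8430408G22Rik, which changed by 3.30 in C2C12-Notch1 and by 4.635 in C2C12-control cells. A model with a term for the line in HEK-Jag1WT wells, with 1 residual degree of freedom, takes the HEK-Jag1Ndr and HEK-control wells together as its base. Its values could differ from those against HEK-control alone, at 0.60 for Egfr, -0.40 for 8430408G22Rik, 0.55 for Cbfa2t3 and 0.62 for Rassf4, the last beside -0.19 against HEK-control alone. In that model 2 of 10 Notch target genes were called, both lower, beside 0.0792% of all genes tested: Heyl (-0.999, edgeR adjusted p 7.13e-08) and Hey1 (-0.55, adjusted p 0.0255). They were named after their values were seen, and whether the 10 genes differ from the Notch targets in this was not tested.

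Relatives and partners of the 10 genes were read to see what else of each system moved, in 11 lists of 198 genes, 138 of them tested. Beside HEK-Jag1WT 9 were higher and 8 lower, 12.3% of those tested, beside 4.46% of all genes. The lists were chosen with earlier results of these data known. Nothing is therefore read from this share, or from that beside HEK-Jag1Ndr given below. In the EGF receptor family and ligands, 2 of 15 rose and 1 fell. The ligand genes Btc and Hbegf rose by log2 1.05 (SE 0.158, edgeR adjusted p 1.96e-06) and 0.69 (SE 0.0872, adjusted p 2.16e-08). Errfi1, which encodes a feedback inhibitor of the receptor, fell by 0.80 (SE 0.0757, adjusted p 3.67e-12). Errfi1 stood at 38.1 RPKM beside HEK-Jag1WT, 56.4 RPKM beside HEK-Jag1Ndr and 61.2 RPKM beside HEK-control in C2C12-Notch1 cells. In C2C12-control cells it stood at 45.7 RPKM beside HEK-Jag1WT, 68.4 RPKM beside HEK-Jag1Ndr and 88.3 RPKM beside HEK-control. These 3 calls held under every alternative tried.

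In the protease-activated receptor system 3 of 16 rose and 1 fell. The plasminogen activator genes Plau and Plat rose by 0.415 and 0.39 (edgeR adjusted p 1.04e-06 and 0.000194). The gene that fell was Plaur, the urokinase receptor gene, at -0.25 (adjusted p 0.0312), named after its values were seen. The list of thyroid hormone activation and response had 1 of 10 higher, the hormone-responsive factor gene Klf9 at 0.72 (adjusted p 2.83e-05, 0.0878 under DESeq2), and 0 lower. The hedgehog-binding protein gene Hhip was the single call among 10 GLI-similar and GLI factors and their partners, at -0.92 (adjusted p 8.08e-09). Adhesion receptors had 1 of 9 higher, Cd97 at 0.36, and 1 lower, Gpr126 at -0.36. ERK response genes had 1 of 14 higher, Dusp5 at 0.64, and 1 lower, Phlda1 at -0.40. Calcium and cyclic nucleotide enzymes had 1 of 15 higher, Pde4b at 0.50. FoxO target genes had 0 of 18 higher and 3 lower, Bcl6 at -0.75, Pdk4 at -0.65 and Cited2 at -0.37. A link of the FoxO list to any of the 10 genes was not tested and is not stated here. No gene passed among 11 of the ETO corepressor family and partners, 7 SEC14-like lipid transfer proteins or 13 of the Ras association domain family, by edgeR adjusted over all genes.

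Several of these calls rested on the method or on single wells. Besides Klf9, DESeq2 did not call Phlda1 (adjusted p 0.0778), Plat (0.123), Gpr126 (0.136), Cited2 (0.57), Pdk4 (0.62), Bcl6 (0.762), Pde4b (0.846), Plaur (0.96) or Dusp5. Under limma with either pseudocount, Cd97, Gpr126, Plat, Plaur, Pde4b, Bcl6, Pdk4 and Cited2 were not called. Without the C2C12-control/HEK-Jag1WT well the edgeR adjusted p was 0.193 for Phlda1, 0.231 for Dusp5, 0.255 for Pde4b, 0.106 for Cd97, 0.075 for Gpr126, 0.231 for Bcl6 and 0.504 for Cited2. Without the C2C12-control/HEK-control well it was 0.103 for Plat, 0.156 for Dusp5, 0.0511 for Cd97 and 0.225 for Cited2. Without the C2C12-Notch1/HEK-Jag1WT well it was 0.278 for Dusp5 and 0.131 for Pdk4, and without the C2C12-Notch1/HEK-control well 0.129 for Dusp5, 0.121 for Pde4b and 0.058 for Bcl6. Plaur had 0.131 to 0.407 when each HEK-Jag1WT or HEK-control well was left out in turn. Beside HEK-Jag1Ndr, 1 of the 138 was higher, Hbegf at 0.36 (edgeR adjusted p 0.0174), and 1 lower, Hhip at -0.49 (adjusted p 0.0018), or 1.45% beside 0.528% of all genes. Neither was called without the C2C12-control/HEK-Jag1Ndr well (0.071 and 0.341). Hbegf was also lost without the C2C12-Notch1/HEK-Jag1Ndr well (0.315) or the C2C12-Notch1/HEK-control well (0.414), and Hhip without the C2C12-control/HEK-control well (0.141).

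Genes whose pattern over the 6 wells was most like the mean of the 10 were ranked by Pearson's r of centred log2 CPM, counts per 1000000 scaled reads. Among 3054 genes with sufficient level and spread the closest 5 were Ddit4 (r 0.996), Gpr30 (0.984), 2610306M01Rik (0.972), Arhgap32 (0.968) and Klf9 (0.967). With 6 wells that share libraries, such values describe likeness only. Ddit4 stood in C2C12-Notch1 cells at 171 RPKM beside HEK-Jag1WT, 112 RPKM beside HEK-Jag1Ndr and 105 RPKM beside HEK-control. In C2C12-control cells it had 209 RPKM beside HEK-Jag1WT, 136 RPKM beside HEK-Jag1Ndr and 111 RPKM beside HEK-control. Among the 10 genes themselves, the r of each with the mean of the other 9 ran from 0.507 for F2rl1 to 0.972 for Gpr133. All 10 were chosen as high beside HEK-Jag1WT, and those wells lead their mean. The centred log2 CPM was 0.883 in C2C12-Notch1 and 1.278 in C2C12-control cells there, against -0.905 to 0.067 in the other wells. The choice itself therefore raises these r values and favours genes high beside HEK-Jag1WT, so no shared regulation is read from them.

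Finally, the same genes were read in the HEK cells of the same wells, to set the human values beside the mouse ones. For 9 of the 10 a gene of the same symbol stood in the human table, and 6 passed the filter on low counts. DIO2 had 0 to 11 reads per well, GPR133 0 to 2 and RASSF4 4 to 13. The DIO2 reads were most in the HEK-Jag1Ndr wells, 11 with C2C12-Notch1 and 8 with C2C12-control cells, against 0 to 2 elsewhere. Mouse Dio2 had 306 and 351 reads in those wells. A count of 0 allows up to 3 reads, or 0.291 to 0.735 reads per 1000000 across the wells. F2RL1 was high, at 50.4 to 114 RPKM.

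In HEK-Jag1WT cells 0 of the 6 were higher and 3 lower than in HEK-control cells, beside 24.9% and 29.4% of all 13596 human genes tested, 54.3% together. The share called was thus near that of all human genes. F2RL1 fell by 0.47 on the log2 scale (SE 0.0621, edgeR adjusted p 2.82e-09), CBFA2T3 by 0.88 (SE 0.21, adjusted p 0.00029) and PDE1B by 1.43 (SE 0.382, adjusted p 0.00118). The mouse genes F2rl1, Cbfa2t3 and Pde1b stood higher in the same wells, which is how they were chosen. The call of PDE1B, with 7 to 40 reads per well, was lost without the C2C12-control/HEK-Jag1WT well (adjusted p 0.113). SEC14L2 stood at -0.05, EGFR at -0.15 and GLIS3 at 0.30 (adjusted p 0.831, 0.36 and 0.104).

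In HEK-Jag1Ndr cells 4 of the 6 rose and 0 fell, beside 22.6% of all human genes called higher and 23.5% lower, 46.1% together. EGFR rose by log2 1.34 (SE 0.107, edgeR adjusted p 6.61e-17). Beside C2C12-Notch1 cells it stood at 11.6 RPKM in HEK-Jag1Ndr cells, against 4.41 RPKM in HEK-control cells. Beside C2C12-control cells it stood at 10.6 RPKM in HEK-Jag1Ndr cells, against 4.53 RPKM in HEK-control cells. SEC14L2 rose by 0.595 (adjusted p 0.000696), GLIS3 by 0.56 (adjusted p 0.00104) and F2RL1 by 0.42 (adjusted p 7.32e-09). The call of GLIS3 was lost without the C2C12-Notch1/HEK-Jag1Ndr well (0.137) or the C2C12-Notch1/HEK-control well (0.104). Under DESeq2 the calls of SEC14L2 (adjusted p 0.0759) and GLIS3 (0.101) were lost. That of GLIS3 was also lost under limma with pseudocounts 0.5 and 0.1 (adjusted p 0.0679 and 0.0751). Human EGFR and SEC14L2 thus moved with mouse Egfr and Sec14l2 beside HEK-Jag1Ndr. The few reads of DIO2, too low to test, were also most there, as mouse Dio2 rose. Human GLIS3 and F2RL1 rose as well, while mouse Glis3 and F2rl1 were not called. The part of human reads in the mouse values was not tested. Between wells with C2C12-Notch1 and with C2C12-control cells, 1 of the 6 was called, F2RL1, higher by 0.33 (edgeR adjusted p 1.4e-06, but 0.0792 and 0.0744 under limma with pseudocounts 0.5 and 0.1) and 0 were lower, beside 3.07% of human genes higher and 1.77% lower, 4.84% together. For F2rl1 a direct value stands beside it. The C2C12-Notch1 wells held 914 human F2RL1 reads and 12 mouse F2rl1 reads with HEK-Jag1WT, 2077 and 12 with HEK-Jag1Ndr, and 2333 and 17 with HEK-control.

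**Figure D5:**
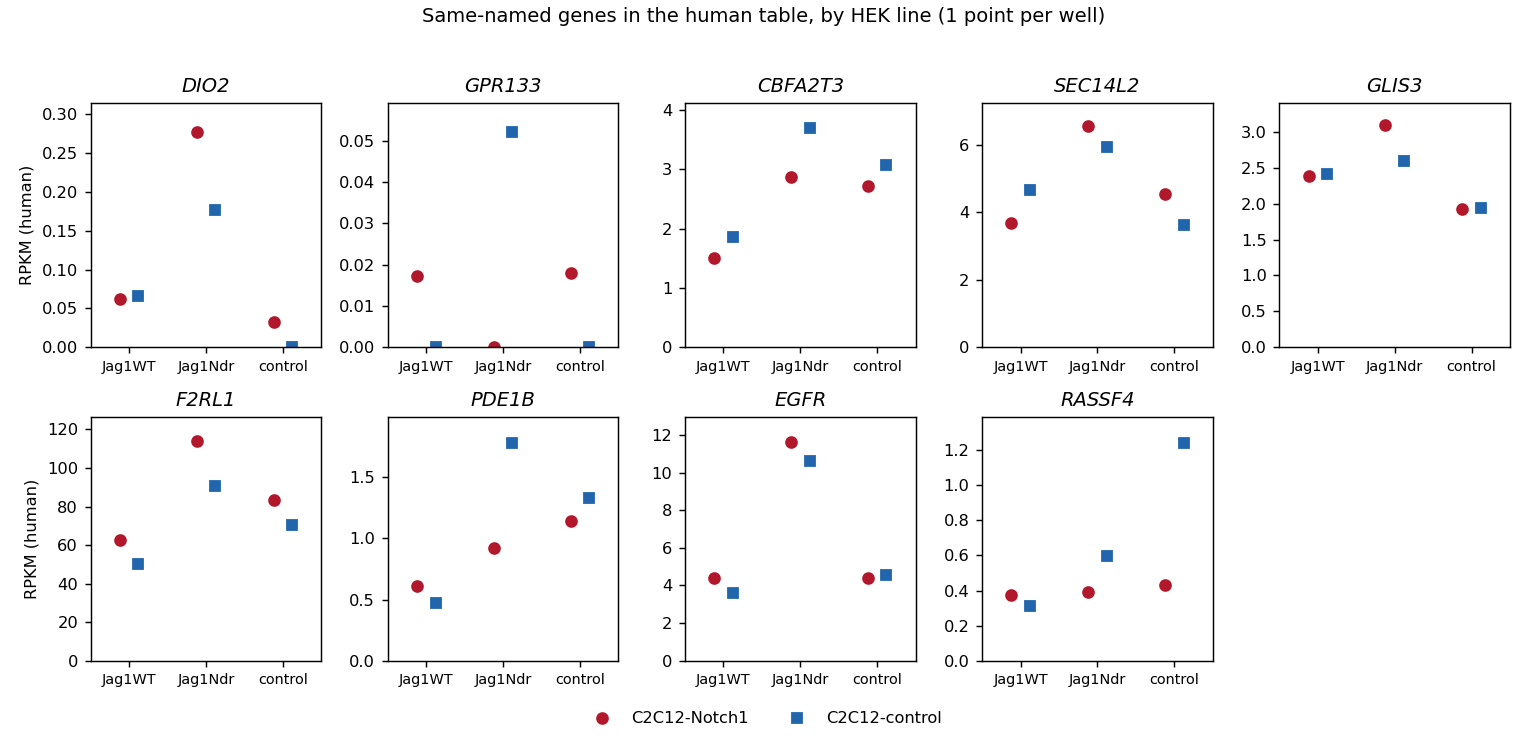
Level in RPKM (vertical axis, linear from 0) of the 9 same-named genes in the human table, in HEK-Jag1WT, HEK-Jag1Ndr and HEK-control cells (horizontal axis), with 1 point per well, circles for wells with C2C12-Notch1 and squares for wells with C2C12-control. EGFR is highest in HEK-Jag1Ndr cells, at 11.6 and 10.6 RPKM, and F2RL1, CBFA2T3 and PDE1B are lowest in HEK-Jag1WT cells.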

How the data were processed

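PolyA RNA from 6 co-culture wells was sequenced from TruSeq RNA v2 libraries, a kit without strand information, per the labels' protocols. The submitters' processing notes list STAR, mm9 and hg19. How genes were counted and how species were separated is not given in the sources used here. For each species the authors deposited 1 table holding, per the file headers, raw read counts and RPKM of RefSeq genes. RPKM values give levels, and counts give tests. Exact repeats were left out (472 mouse, 448 human). Each table was fitted with edgeR 4.0.16 in R 4.3.3 (TMM, filterByExpr, robust quasi-likelihood test, Benjamini-Hochberg adjusted p under 0.05 over all genes), with additive terms for C2C12 and HEK line leaving 2 residual degrees of freedom. The 3 wells of each C2C12 line, and the 2 of each HEK line, were treated as its replicates. Single-well ratios used the same scaling, with exact 95% intervals that cover counting error only. The fits were also run on simulated counts with a spread near that fitted to these wells. Such a run does not check variation between repeat cultures. Genes named beside the 10 were up to 3 per list by smallest p beside HEK-Jag1WT, given where called, and the 5 most alike (average log2 CPM of at least 2, SD of at least 0.3, Jag1 left out). The 10 genes and the lists were chosen with earlier results of these data known. Alternatives were other scalings, no filter, DESeq2 1.42.0, limma 3.58.1 on log2(RPKM + 0.5) or log2(RPKM + 0.1), and leaving out each well. Same-named human genes were matched by symbol. The values of 1 gene counted in the lists are not reported here.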

Additional observations from a re-analysis of the deposited data

Results flagged for a closer look

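The log2 ratios of HEK-Jag1Ndr over HEK-control for Rassf4 and F2rl1 had opposite signs in the C2C12 lines, and this difference was not tested. For Rassf4 the log2 ratio was -1.53 in C2C12-Notch1 cells (95% counting interval -2.97 to -0.30, 7 reads against 28) and 0.44 in C2C12-control cells (-0.34 to 1.28, 51 reads against 19), a difference of -1.97 between the lines. For F2rl1 it was -0.03 in C2C12-Notch1 cells (-1.23 to 1.12, 12 reads against 17) and 0.52 in C2C12-control cells (0.035 to 1.02, 136 reads against 48), a difference of -0.55. For both genes the intervals of the lines overlap, and the F2rl1 interval in C2C12-Notch1 cells and the Rassf4 interval in C2C12-control cells include 0.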

How the results depend on the processing

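No paired analysis was possible because each pairing of cell lines was sequenced from 1 well with no replicate number, and the C2C12 line is already a term of the model. Beside HEK-Jag1Ndr, 3 of the 10 genes were called by edgeR, and 0 under limma with either pseudocount (0.5 or 0.1), which called 1 gene of all tested. Leaving out 1 well gave 2 to 5, with 5 without the C2C12-Notch1/HEK-control well. Between the C2C12 lines 7 were called, 3 under DESeq2, and 5 to 7 with 1 well left out. Of the 6 human genes 4 were called in HEK-Jag1Ndr cells, 2 under DESeq2 and 3 to 4 with 1 well left out. Over all human genes tested, fewer were likewise called in HEK-Jag1Ndr cells under DESeq2 than by edgeR. In HEK-Jag1WT cells 3 of the 6 were called, and 2 to 3 with 1 well left out. Of the 138 relatives 17 were called beside HEK-Jag1WT, 7 under DESeq2 and 9 under limma with either pseudocount. With 1 well left out it was 11 to 18, the lowest without the C2C12-control/HEK-Jag1WT well. Over all mouse genes tested, fewer were also called beside HEK-Jag1WT under DESeq2 or limma than by edgeR. Beside HEK-Jag1Ndr 2 were called, 4 with no filter on low counts, 0 under DESeq2 or limma, and 1 to 3 with 1 well left out. The count of 60 genes called in all beside HEK-Jag1Ndr became 7 under DESeq2, 91 with no filter and 40 to 84 with 1 well left out; the cause was not tested. The model with a term for the line in HEK-Jag1WT wells was not run with a well left out, since no residual degree of freedom remained. Differences that were called under no setting, or only as given in the report, also turned sign. With 1 well left out, HEK-Jag1Ndr minus HEK-control ran in log2 from -0.187 to 0.531 for F2rl1, -1.46 to 0.369 for Rassf4 and -0.343 to 0.27 for PDE1B. C2C12-Notch1 minus C2C12-control ran from -0.194 to 0.269 for Egfr, -0.668 to 0.03 for Rassf4 and -0.169 to 0.003 for SEC14L2. HEK-Jag1WT minus HEK-control ran from -0.203 to 0.19 for SEC14L2. Under limma with pseudocounts 0.5 and 0.1, SEC14L2 turned to 0.025 and 0.028 in HEK-Jag1WT cells and to 0.041 and 0.044 between the C2C12 lines, PDE1B to 0.056 and 0.058 in HEK-Jag1Ndr cells, and the term for the line in HEK-Jag1WT wells to -0.145 and -0.05 for Gpr133. Depth limits Gpr133, Cbfa2t3, F2rl1, Pde1b and Rassf4 most, with under 40 reads in each C2C12-Notch1 well.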
